A study of Mus musculus with 8 samples.

Results

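Accessible chromatin at 8 genes of the NF-kB pathway was examined in mouse pro-B cells treated with dTAG-13 or with DMSO. The compound dTAG-13 is meant to degrade a tagged form of the B cell transcription factor EBF1, whose level is not given in the data used here. The genes were the 5 that encode the NF-kB factors, Nfkb1, Nfkb2, Rel, Rela and Relb, and 3 that encode feedback inhibitors, Nfkbia, Nfkbiz and Tnfaip3. A region of the authors' deposited tables belonged to one of these genes when the nearest protein-coding gene span to its centre, within 100 kb, was that gene. By this rule 50 of 54239 regions in EBF1-dTAG_C belonged to the 8 genes (30 to the factors and 20 to the inhibitors), and 52 of 55193 regions in EBF1-dTAG_N did (31 to the factors and 21 to the inhibitors). All 8 genes held at least 1 region in each table.

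The cells were pro-B cells transformed with A-MuLV (Abelson murine leukaemia virus), in which exogenous, modified EBF1 had taken the place of the endogenous protein. There were 2 lines, EBF1-dTAG_C and EBF1-dTAG_N, and by their names both carried EBF1 with a dTAG, a degron through which the compound dTAG-13 marks a protein for degradation. In each line a dTAG-13 group (0.5 uM, 6 h) was set against a DMSO group (solvent alone), with 2 libraries in each of the 4 groups, described by the submitters as biological replicates. ATAC-seq, in which a loaded Tn5 transposase cuts and tags open DNA, gave the libraries. The control libraries are 0 h by title but carry a 6 h DMSO treatment in the labels, and the treatment was taken here. All groups carried tagged EBF1 and the transforming virus, so an effect of dTAG-13 itself and an effect of EBF1 loss cannot be told apart. Whether a line was 1 clone is not given in the sources used here. In a bulk library a partial change in every cell and a full change in some of the cells cannot be told apart either.

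NF-kB factors are dimers that bind DNA through a shared Rel homology domain. In resting cells inhibitor proteins hold them in the cytoplasm. In the canonical branch a kinase complex marks the inhibitor encoded by Nfkbia for destruction, which frees Rela and Rel dimers. The non-canonical branch processes the Nfkb2 precursor and releases dimers with Relb. The inhibitor genes are themselves NF-kB targets and so close a feedback loop. The family owes its name to its binding in the immunoglobulin kappa light chain gene of B cells.

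Promoter sequence from RefSeq (GRCm38.p6) was matched for 5 of the 8 genes, Nfkb2, Rel, Rela, Nfkbia and Tnfaip3, with 8 promoters between them. Each was searched over the 250 bases before the gene start for the NF-kB motif on both strands, spelled as GGG, any pair of bases, and TTTCC. The motif was found in 5 of the 8 promoters and in 4 of the 5 genes, against 1.41% of all 32851 promoters. The 4 sequences below are shown because each carries the motif, in capitals, and because each gene start lies in an accessible region whose value is given further on. They read 5′ to 3′ on the strand of the gene, with the gene start just after the last base.
Nfkb2 (chr19:46304487-46304736, plus strand): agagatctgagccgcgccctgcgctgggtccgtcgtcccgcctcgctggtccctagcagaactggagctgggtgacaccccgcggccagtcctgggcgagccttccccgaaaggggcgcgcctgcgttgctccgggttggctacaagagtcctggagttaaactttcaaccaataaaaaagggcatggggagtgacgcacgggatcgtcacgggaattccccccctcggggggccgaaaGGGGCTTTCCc
Rel (chr11:23770970-23771219, minus strand): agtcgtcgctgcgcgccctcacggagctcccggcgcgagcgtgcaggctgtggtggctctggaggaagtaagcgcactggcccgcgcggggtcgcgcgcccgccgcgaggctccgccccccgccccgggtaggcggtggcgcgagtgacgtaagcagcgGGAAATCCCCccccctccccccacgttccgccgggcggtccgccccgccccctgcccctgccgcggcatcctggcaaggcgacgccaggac
Nfkbia (chr12:55492648-55492897, minus strand): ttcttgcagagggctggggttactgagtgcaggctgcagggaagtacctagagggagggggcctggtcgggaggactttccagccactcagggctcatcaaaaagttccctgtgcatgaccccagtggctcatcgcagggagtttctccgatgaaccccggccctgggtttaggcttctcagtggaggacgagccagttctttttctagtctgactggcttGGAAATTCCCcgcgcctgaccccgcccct
Tnfaip3 (chr10:19015411-19015660, minus strand): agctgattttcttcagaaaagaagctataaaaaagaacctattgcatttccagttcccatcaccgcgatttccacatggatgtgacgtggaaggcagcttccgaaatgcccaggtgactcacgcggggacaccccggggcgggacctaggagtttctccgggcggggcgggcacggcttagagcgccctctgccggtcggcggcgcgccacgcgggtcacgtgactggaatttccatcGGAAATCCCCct
The matches begin 11 bases before the start of Nfkb2, 91 before Rel, 29 before Nfkbia and 12 before Tnfaip3. A narrower form, with A as the first base of that pair, whose matches are all among those of the first, was in promoters of Nfkb2 and Nfkbia and in 0.356% of all promoters. For EBF1, the palindrome made of TCCC, any pair of bases, and GGGA was in none of the 8 promoters and in 0.779% of all, and its core CCCNNGGG was in promoters of Nfkb2 and Tnfaip3 and in 11.8% of all. These are matches of letters, not measured binding.

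Few regions were called in EBF1-dTAG_C, both over the 8 genes and over the whole table. At an adjusted p under 0.05 in the authors' deposited table, 2 of 50 regions fell after dTAG-13, where 6.62% of all regions in that table fell, and both were inside Relb. None of the 50 rose, where 0.308% of all regions did, and 6.93% of all regions were called in either direction. These are calls of edgeR. At an unadjusted p under 0.05 (edgeR) there were 4 falls and 2 rises. The share of all regions or genes that fell or rose at that unadjusted threshold was not counted. Such counts, here and below, therefore have no background to be set against. In EBF1-dTAG_N, 5 of 52 regions fell (9.62%, against 18.5% of all regions) and 14 rose (26.9%, against 18.8%) in the authors' deposited table; 37.3% of all its regions were called either way. The median log2 fold change of the table was itself above 0, at 0.09 over all EBF1-dTAG_C regions and 0.17 over all EBF1-dTAG_N regions. After each fold was taken relative to that median, 6 of the 52 EBF1-dTAG_N regions fell (20.8% of all) and 5 rose (7.98% of all). In EBF1-dTAG_C the same centring left 2 falls (7.39% of all) and 0 rises (0.162% of all). The share of falls in the deposited tables was thus 4% in EBF1-dTAG_C, against 6.62% of all regions, and 9.62% in EBF1-dTAG_N, against 18.5%. With so few falling regions, no trait of the 8 genes is read from these shares. The split between falls and rises in EBF1-dTAG_N turned with the centring.

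**Figure D1:**
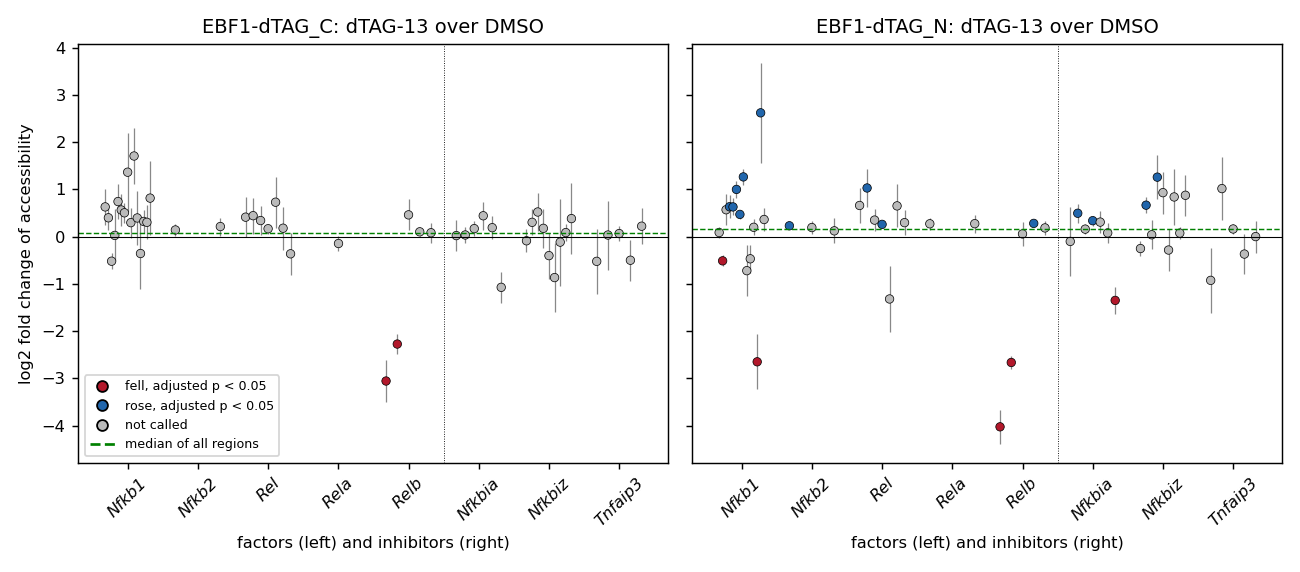
Log2 fold change of accessibility (dTAG-13 over DMSO, authors' deposited tables) for every region of the 8 genes, in order of position within each gene, for EBF1-dTAG_C (left) and EBF1-dTAG_N (right); bars are the approximate SE taken from the fold and its F. The 2 Relb regions lie lowest in both lines, at -3.05 and -2.27 in EBF1-dTAG_C and at -4.02 and -2.66 in EBF1-dTAG_N, and the blue rises appear only in the right panel.

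Relb, the factor gene of the non-canonical branch, lost accessibility at a pair of neighbouring regions inside the gene in both lines. The gene spans 23222 bases (chr7:19606217-19629438) and held 5 regions in each table. Summit pileups, the number of reads or fragments stacked at a peak's summit, were solved from the fold enrichment and p-value that the authors' peak lists give, and are not scaled between libraries. The share of all regions whose pileups do not overlap between the groups was not counted. With 2 libraries in each group, no weight is put on such a separation, here or below.

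At the first region (chr7:19613374-19613643 in EBF1-dTAG_C), neither dTAG-13 list held a peak, whereas the summit pileup was 33 and 15 in the DMSO lists. In EBF1-dTAG_N the same position (chr7:19613350-19613663) had no peak in either dTAG-13 list and pileups of 51 and 32 in the DMSO lists. The groups did not overlap in either line: a peak was present in every DMSO library and in no dTAG-13 library. The EBF1-dTAG_C DMSO peak with pileup 15 was weak, above 11.3% of the peaks of its list by p-value, and it is gone when all lists are trimmed to the same number of best peaks. The authors' deposited table put the change at -3.05 ± 0.44 on the log2 scale in EBF1-dTAG_C (approximate SE from the fold and F), 8.31-fold lower after dTAG-13 (adjusted p = 0.00115, edgeR). For EBF1-dTAG_N it gave -4.02 ± 0.36, 16.3-fold lower (adjusted p = 4.29e-28, edgeR, authors' deposited table). That p rests on a spread pooled over regions; with the degrees of freedom from the other line it was 6.60e-06.

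The second region lay further into the gene (chr7:19614992-19615563 in EBF1-dTAG_C). It had pileups of 7 and 14 in the EBF1-dTAG_C dTAG-13 lists, against 61 and 54 in the DMSO lists. In EBF1-dTAG_N (chr7:19614961-19615585) the pileups were 15 and 12 in the dTAG-13 lists, against 71 and 71 in the DMSO lists. A peak stayed in all 8 lists, lower in every dTAG-13 list than in every DMSO list of its line. Its fold enrichment over the local background of the library, which the authors' lists give, was 5.14 and 8.22 in the EBF1-dTAG_C dTAG-13 lists, against 16.9 and 15.0 in the DMSO lists. By the authors' deposited table it fell 4.83-fold in EBF1-dTAG_C (log2 -2.27 ± 0.21, adjusted p = 5.15e-05, edgeR). The fall in EBF1-dTAG_N was 6.33-fold by the authors' deposited table (log2 -2.66 ± 0.15, adjusted p = 1.51e-71, edgeR).

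The other 3 Relb regions did not fall. A region at the high-coordinate end of the gene (chr7:19628450-19629232 in EBF1-dTAG_C) had pileups of 150 and 187 in the EBF1-dTAG_C dTAG-13 lists, against 200 and 172 in the DMSO lists, and the groups overlapped. It was 783 bases wide and stood at the 99.6th percentile of mean abundance of all regions (log2 CPM 7.80). Its log2 fold change was 0.10 in the authors' deposited table (adjusted p = 0.667, edgeR). In EBF1-dTAG_N its pileups were 170 and 211 in the dTAG-13 lists, against 205 and 198 in the DMSO lists, which again overlapped. There the authors' deposited table called a rise of 1.22-fold (log2 0.28), which was not called once the median of all regions was taken off (adjusted p = 0.124). The third region inside the gene (starting at 19619071) had a log2 fold change of 0.46 in EBF1-dTAG_C (adjusted p = 0.571) and 0.06 in EBF1-dTAG_N (adjusted p = 0.880) in the authors' deposited tables. The small region across the high-coordinate end gave 0.08 and 0.19 there, not called in either line. Both falling regions were thus in the part of the gene away from the end with the highest accessibility, 7.29 and 9.06 kb from the low-coordinate end in EBF1-dTAG_C. The next protein-coding gene to both was Clasrp, 8.99 and 10.8 kb away, so the assignment to Relb rests on their lying inside its span.

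**Figure D2:**
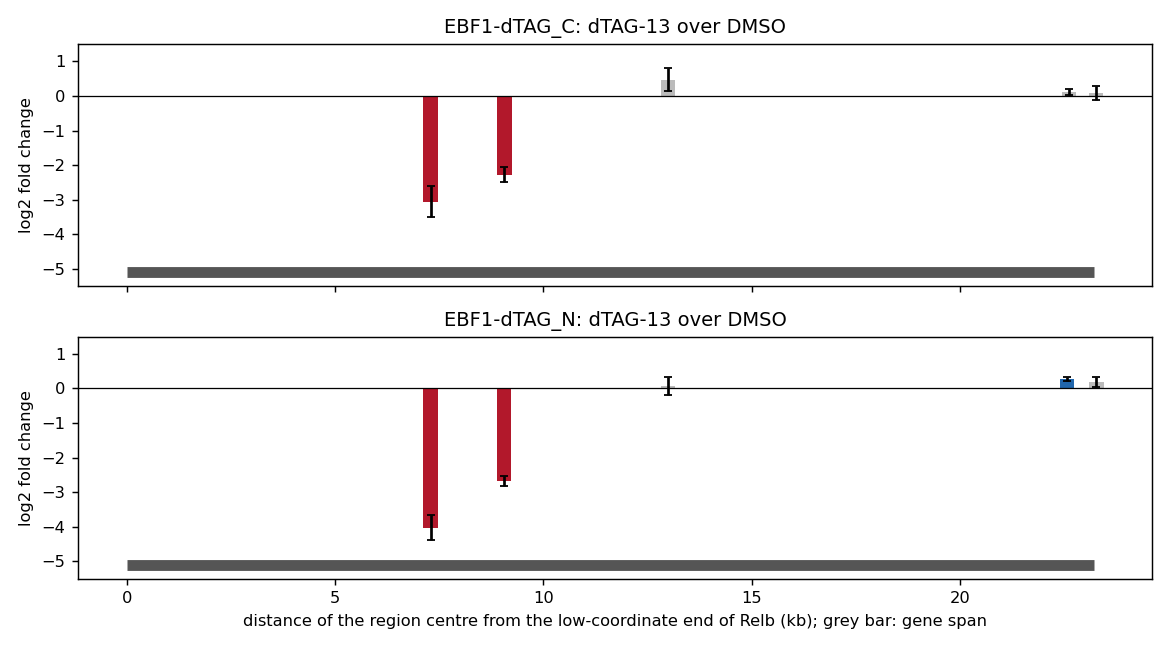
Log2 fold change (dTAG-13 over DMSO, authors' deposited tables, with approximate SE) of the 5 Relb regions against the distance of the region centre from the low-coordinate end of the gene in kb; red bars fell, the blue bar rose, grey bars were not called, and the grey line is the gene span. The falls at 7.29 and 9.06 kb stand beside 3 regions of little change at and above 12.99 kb in both lines.

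Nfkb1, which encodes a precursor that is processed into a DNA-binding subunit with no activation domain of its own, held the most regions, 15 in EBF1-dTAG_C and 14 in EBF1-dTAG_N. None was called in EBF1-dTAG_C, where 6.93% of all regions were (edgeR, with 1 fall and 2 rises at an unadjusted p under 0.05). In EBF1-dTAG_N 2 of 14 fell (14.3%, against 18.5% of all regions) and 6 rose (42.9%, against 18.8%). After centring 2 fell, against 20.8% of all regions, and 4 rose, against 7.98%. A region 2.76 kb beyond the low-coordinate end (chr3:135581624-135582166 in EBF1-dTAG_C) had pileups of 26 and 49 in the EBF1-dTAG_C dTAG-13 lists, against 62 and 58 in the DMSO lists. In EBF1-dTAG_N it had 46 and 40 in the dTAG-13 lists, against 66 and 60 in the DMSO lists. Every dTAG-13 list was below every DMSO list of its line, in libraries whose background was lower too. The authors' deposited tables gave log2 fold changes of -0.52 ± 0.17 in EBF1-dTAG_C (adjusted p = 0.108, not called) and -0.51 ± 0.11 in EBF1-dTAG_N (adjusted p = 4.96e-05, fell 1.42-fold).

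The other falling Nfkb1 region was 8.02 kb outside the gene (chr3:135699824-135700161). It had no peak in either EBF1-dTAG_N dTAG-13 list, against pileups of 14 and 11 in the DMSO lists. The authors' deposited table put it 6.27-fold lower after dTAG-13 (log2 -2.65 ± 0.58, adjusted p = 3.96e-05, edgeR); the EBF1-dTAG_C table held no region that overlapped it. The next protein-coding gene, Slc39a8, was 117 kb away.

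Accessibility rose at 5 regions inside Nfkb1 and at 1 outside it in EBF1-dTAG_N. The rise with the smallest adjusted p (chr3:135665734-135666210) had pileups of 31 and 48 in the dTAG-13 lists, against 31 and 22 in the DMSO lists. The lowest dTAG-13 value equalled the highest DMSO value. The authors' deposited table gave it as 2.41-fold higher (log2 1.27 ± 0.17, adjusted p = 1.09e-12), with no overlapping region in the EBF1-dTAG_C table. A rise starting at 135608188 (log2 1.00, authors' deposited table, adjusted p = 5.68e-08) had a peak in both dTAG-13 lists, with pileups of 15 and 19, and in neither DMSO list. At 135628689 the pileups were 90 and 125 in the dTAG-13 lists, against 80 and 70 in the DMSO lists, with no overlap (log2 0.47, adjusted p = 3.08e-05, authors' deposited table). These 3 and the rise at 135607727 (log2 0.63) were still called after centring on the median of all regions. The remaining rises, at 135604721 and 135722299, were not, and they also lost the call with the degrees of freedom from the other line (adjusted p = 0.0736 and 0.0855). The groups overlapped at 135607727, with pileups of 24 and 21 in the dTAG-13 lists, against 16 and 26 in the DMSO lists. They also overlapped at 135604721, with 16 and 29 against 30 and 25. The rise at 135722299 rested on a peak of pileup 6 in 1 dTAG-13 list. That region stood at the 1.59th percentile of mean abundance of all regions. The paired EBF1-dTAG_C regions at 135604726, 135607740, 135608153 and 135628726 had log2 fold changes of 0.74, 0.57, 0.51 and 0.30 in the authors' deposited table, none called (adjusted p of 0.246 to 0.740). At 135608153 the EBF1-dTAG_C pileups were 9 and 17 in the dTAG-13 lists, against 24 and 10 in the DMSO lists. At 135628726 they were 59 and 41, against 46 and 54. The groups overlapped at both regions in that line.

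Nfkb2, whose precursor both holds Relb back and is processed into its partner, held 2 regions in EBF1-dTAG_C and 3 in EBF1-dTAG_N, all inside the gene. The region with the gene start printed above (chr19:46304185-46304836 in EBF1-dTAG_C) had pileups of 72 and 87 in the EBF1-dTAG_C dTAG-13 lists, against 105 and 82 in the DMSO lists. In EBF1-dTAG_N the pileups were 78 and 91 in the dTAG-13 lists, against 118 and 84 in the DMSO lists. The groups overlapped in both lines. Its log2 fold change was 0.14 in EBF1-dTAG_C (adjusted p = 0.661) and 0.23 in EBF1-dTAG_N (adjusted p = 0.0103, called as a rise) in the authors' deposited tables, and the rise was not called after centring (0.06, adjusted p = 0.621).

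Rel encodes c-Rel, an activating subunit prominent in lymphocytes, and held 7 regions in each table. The region over the gene start (chr11:23770677-23771583 in EBF1-dTAG_C) had pileups of 42 and 64 in the EBF1-dTAG_C dTAG-13 lists, against 69 and 57 in the DMSO lists, which overlapped. In EBF1-dTAG_N the dTAG-13 lists gave 56 and 46 and the DMSO lists 63 and 62, with no overlap. The log2 fold changes of the authors' deposited tables were positive, 0.17 in EBF1-dTAG_C (adjusted p = 0.470) and 0.26 in EBF1-dTAG_N (adjusted p = 0.00132, called as a rise). The sign in EBF1-dTAG_N was thus opposite to that of the unscaled pileups, and how the tables scale libraries is not given in the sources used here. After centring, the EBF1-dTAG_N value was 0.09 (adjusted p = 0.378). One further Rel region rose in EBF1-dTAG_N, inside the gene at 23762657, with pileups of 13 and 5 in the dTAG-13 lists and no peak in the DMSO lists (log2 1.03, adjusted p = 0.0298, authors' deposited table). That call was lost with the degrees of freedom from the other line (adjusted p = 0.0759) and after centring (adjusted p = 0.0949). The paired EBF1-dTAG_C region had pileups of 14 and 11 in the dTAG-13 lists, against 13 and 18 in the DMSO lists (log2 0.45, adjusted p = 0.654, edgeR).

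Rela, the main activating subunit of the canonical branch, had the fewest regions, 1 in EBF1-dTAG_C and 2 in EBF1-dTAG_N, all at its start. The EBF1-dTAG_C region had pileups of 26 and 22 in the dTAG-13 lists, against 34 and 38 in the DMSO lists. In EBF1-dTAG_N the region that overlaps it had 21 and 25 in the dTAG-13 lists, against 33 and 28 in the DMSO lists. Both dTAG-13 pileups were below both DMSO pileups in each line, in libraries whose background was lower too. The log2 fold changes of the authors' deposited tables were -0.14 in EBF1-dTAG_C (adjusted p = 0.770) and 0.27 in EBF1-dTAG_N (adjusted p = 0.0633). No Rela region was called (edgeR), where 6.93% of all regions in EBF1-dTAG_C and 37.3% in EBF1-dTAG_N were. At an unadjusted p under 0.05 (edgeR) there were 0 in EBF1-dTAG_C and 1 rise in EBF1-dTAG_N.

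**Figure D3:**
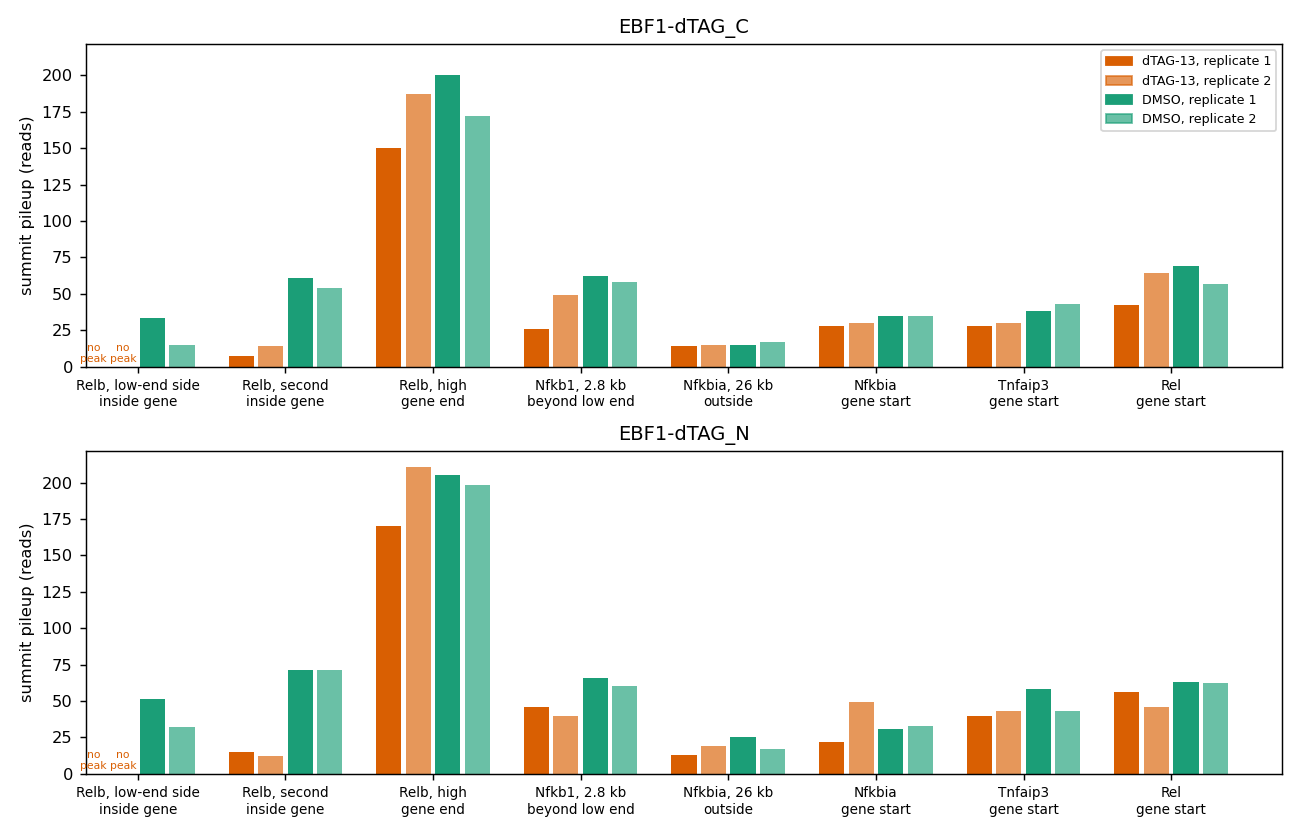
Summit pileup in reads (not scaled between libraries) in each library at 8 positions, for EBF1-dTAG_C (top) and EBF1-dTAG_N (bottom), with the dTAG-13 libraries in orange left of the DMSO libraries in green. The first Relb region has no peak in any dTAG-13 library and the second is at 7 to 15 after dTAG-13, against 54 to 71 with DMSO, while the high Relb gene end stays between 150 and 211 in all 8 libraries.

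Nfkbia encodes IkB alpha, the inhibitor that is degraded to start the canonical response and made again by it. It held 6 regions in EBF1-dTAG_C and 7 in EBF1-dTAG_N. A region 25.6 kb outside the gene (chr12:55518014-55518468 in EBF1-dTAG_N) had pileups of 13 and 19 in the EBF1-dTAG_N dTAG-13 lists, against 25 and 17 in the DMSO lists. In EBF1-dTAG_C it had 14 and 15 in the dTAG-13 lists, against 15 and 17 in the DMSO lists. The groups overlapped or touched in both lines. By the authors' deposited table it fell 2.55-fold in EBF1-dTAG_N (log2 -1.35 ± 0.29, adjusted p = 3.17e-05, edgeR), while the EBF1-dTAG_C value of -1.07 ± 0.33 was not called (adjusted p = 0.0875). It was the only falling region of the 3 inhibitor genes in either table, and the next protein-coding gene, Aldoart2, was 47.0 kb away.

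At the start of Nfkbia (chr12:55492339-55492853 in EBF1-dTAG_C), the pileups were 28 and 30 in the EBF1-dTAG_C dTAG-13 lists, against 35 and 35 in the DMSO lists. In EBF1-dTAG_N they were 22 and 49 in the dTAG-13 lists, against 31 and 33 in the DMSO lists, with the dTAG-13 libraries on either side of the DMSO libraries. The authors' deposited tables gave log2 fold changes of 0.17 in EBF1-dTAG_C (adjusted p = 0.684) and 0.34 in EBF1-dTAG_N (adjusted p = 0.00670, called as a rise, and 0.257 after centring). The EBF1-dTAG_C fold was positive although every unscaled dTAG-13 pileup was below every DMSO pileup of that line. A region 23.8 kb beyond the other end of the gene also rose in EBF1-dTAG_N, with pileups of 17 and 20 in the dTAG-13 lists, against 7 and 10 in the DMSO lists (log2 0.50, adjusted p = 0.0366, authors' deposited table). Its call was lost with the degrees of freedom from the other line (adjusted p = 0.0852).

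Nfkbiz encodes IkB zeta, an inducible nuclear member of the inhibitor family that also coactivates some NF-kB targets. It held 9 regions in each table, and none fell, where 6.62% of all regions in EBF1-dTAG_C and 18.5% in EBF1-dTAG_N did (edgeR). At an unadjusted p under 0.05 (edgeR) there were 0 falls in either line. After centring, 1 region fell in EBF1-dTAG_N, 63.9 kb outside the gene (log2 -0.42, adjusted p = 0.0220). The smallest adjusted p in EBF1-dTAG_N was at a region 56.8 kb outside the gene (chr16:55754395-55754780), with pileups of 48 and 40 in the dTAG-13 lists, against 37 and 36 in the DMSO lists. Every dTAG-13 value was above every DMSO value, with no share of all regions to set this against. The authors' deposited table gave a 1.59-fold rise (log2 0.67 ± 0.17, adjusted p = 0.000480), which was still called after centring. The paired EBF1-dTAG_C region had 26 and 30 in the dTAG-13 lists, against 29 and 42 in the DMSO lists (log2 0.30, adjusted p = 0.684, authors' deposited table). The only other rise, at 55788762, rested on a peak in 1 of the 4 lists (log2 1.26, adjusted p = 0.0220, authors' deposited table; 0.0646 with the degrees of freedom from the other line).

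Tnfaip3 encodes a ubiquitin-editing enzyme that shuts down signalling upstream of NF-kB. None of its 5 regions was called in either table, where 6.93% of all regions in EBF1-dTAG_C and 37.3% in EBF1-dTAG_N were (edgeR). At an unadjusted p under 0.05 (edgeR) there were 0 in either line. With 5 regions, such a count does not show that the gene is stable. The region over the gene start (chr10:19015181-19015612 in EBF1-dTAG_C) had pileups of 28 and 30 in the EBF1-dTAG_C dTAG-13 lists, against 38 and 43 in the DMSO lists. In EBF1-dTAG_N they were 40 and 43 in the dTAG-13 lists, against 58 and 43 in the DMSO lists. The log2 fold changes in the authors' deposited tables were 0.07 in EBF1-dTAG_C (adjusted p = 0.895) and 0.16 in EBF1-dTAG_N (adjusted p = 0.186). In EBF1-dTAG_C the fold was thus positive where every unscaled dTAG-13 pileup was below every DMSO pileup.

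Set side by side, 2 of 30 factor regions and 0 of 20 inhibitor regions fell in EBF1-dTAG_C, where 6.62% of all regions did, and none of either rose (edgeR, authors' deposited table). At an unadjusted p under 0.05 the numbers were 3 falls and 2 rises for the factors, and 1 fall and 0 rises for the inhibitors. In EBF1-dTAG_N, 4 of 31 factor regions fell and 10 rose, and 1 of 21 inhibitor regions fell and 4 rose, against 18.5% and 18.8% of all regions. The median log2 fold change was 0.31 over factor regions and 0.05 over inhibitor regions in EBF1-dTAG_C, against 0.09 over all regions. In EBF1-dTAG_N it was 0.27 over factor regions and 0.16 over inhibitor regions, against 0.17 over all regions. Without Relb, 0 of 25 factor regions fell in EBF1-dTAG_C, whereas 2 of 26 fell in EBF1-dTAG_N, with medians of 0.34 and 0.29; at an unadjusted p under 0.05 (edgeR) 1 of the 25 fell. Both factor falls in EBF1-dTAG_C were thus in Relb, and at 6.67% of factor regions they were near the 6.62% of all regions. No difference between factors and inhibitors is read from these counts, and no test of the lists was made.

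By place, none of the regions within 1 kb of a gene end fell (0 of 8 for EBF1-dTAG_C, and 0 of 10 for EBF1-dTAG_N), where 2.11% and 6.89% of all regions so placed fell. At an unadjusted p under 0.05 (edgeR) 0 of them fell in either line. Inside genes 2 of 20 regions fell in each line, all in Relb, against 8.03% and 22.1% of all regions inside genes. Outside genes 0 of 22 fell for EBF1-dTAG_C, and for EBF1-dTAG_N 3 of 22, against 7.54% and 20.7%; at an unadjusted p under 0.05 (edgeR) 2 fell in EBF1-dTAG_C. Gains in EBF1-dTAG_N numbered 3 of 10 near gene ends, 7 of 20 inside genes and 4 of 22 outside, against 27.1%, 16.6% and 16.7% of all regions so placed. After centring they numbered 0 near gene ends, 4 inside genes and 1 outside, against 4.37%, 8.68% and 9.19% of all regions so placed.

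Peaks were also counted library by library. Of the 50 EBF1-dTAG_C regions, 37 and 36 held a peak in the dTAG-13 lists, against 34 and 38 in the DMSO lists. Of the 52 EBF1-dTAG_N regions, 37 and 40 held one in the dTAG-13 lists, against 41 and 34 in the DMSO lists. These counts overlapped between the groups in both lines. For the factors in EBF1-dTAG_C they were 23 and 22 with dTAG-13, against 18 and 21 with DMSO, and for the inhibitors 14 and 14, against 16 and 17. For the factors in EBF1-dTAG_N they were 21 and 23 with dTAG-13, against 25 and 19 with DMSO. For the inhibitors there they were 16 and 17, against 16 and 15, so the order seen in EBF1-dTAG_C did not recur. The EBF1-dTAG_C dTAG-13 lists were also shorter, with 34382 and 34202 peaks, against 40440 and 42139 with DMSO. The share of all regions with a peak in each library is not given here, so neither order can be set against it. A peak was present in all 4 lists at 26 EBF1-dTAG_C regions and 28 EBF1-dTAG_N regions, and in 1 list alone at 12 regions of each line. Peaks that both DMSO libraries had and both dTAG-13 libraries lacked were found at 1 region in EBF1-dTAG_C, in Relb, where 8.46% of all regions had this pattern. In EBF1-dTAG_N it was found at 3 regions, against 10.3%. The opposite pattern was at 0 regions in EBF1-dTAG_C and 3 in EBF1-dTAG_N, against 1.38% and 3.53%.

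The lines, which share no libraries, were compared at 43 pairs of overlapping regions, 24 of the factors and 19 of the inhibitors. Only the 2 Relb regions fell in both lines, where 7.98% of 42803 paired regions overall did, and none rose in both, where 0.306% did. The difference in log2 fold change, EBF1-dTAG_C minus EBF1-dTAG_N, was 0.97 at the first Relb region (approximate 95% interval -0.28 to 2.22) and 0.39 at the second (-0.17 to 0.95). At the distal Nfkbia region it was 0.28 (-0.69 to 1.25). None of the 43 differences was called, and none passed an unadjusted p under 0.05; over all pairs 0 were called and 1711, or 4%, passed the unadjusted threshold. The smallest adjusted p was 0.994 in this approximate test, which does not show that the lines respond alike. On simulated data the same test called 48% of true differences of 2 and 80% of true differences of 4 on the log2 scale.

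**Figure D4:**
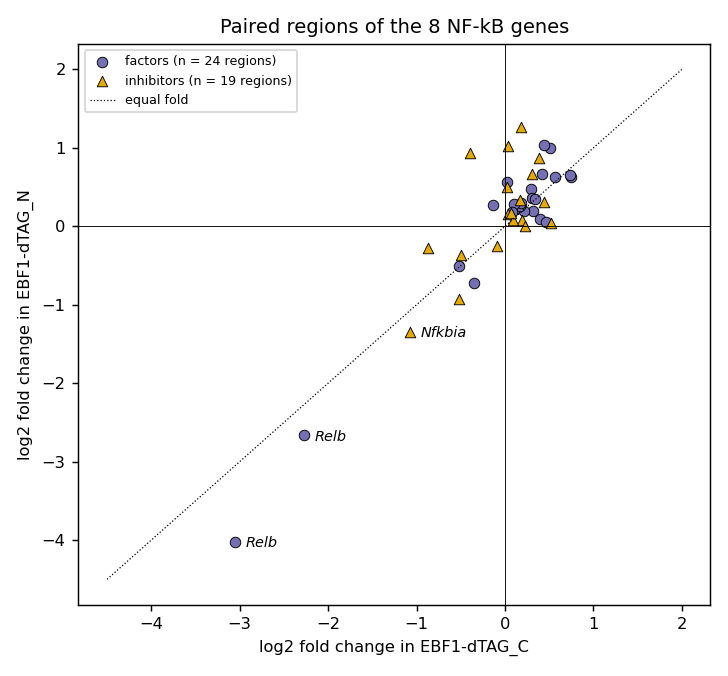
Log2 fold change (dTAG-13 over DMSO, authors' deposited tables) in EBF1-dTAG_C against that in EBF1-dTAG_N at the 43 paired regions, with circles for the 24 factor regions and triangles for the 19 inhibitor regions; the dotted line marks equal folds. The 2 Relb regions are at the lower left, the distal Nfkbia region follows at -1.07 and -1.35, and the other pairs lie between -0.86 and 0.74 in EBF1-dTAG_C and between -0.92 and 1.26 in EBF1-dTAG_N.

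The 100 kb limit of the assignment left out few regions. The farthest region within it belonged to Nfkbiz at 64.0 kb in EBF1-dTAG_C and 63.9 kb in EBF1-dTAG_N, with log2 fold changes of -0.09 and -0.25 in the authors' deposited tables. The nearest beyond it was also closest to Nfkbiz, at 113 kb in both lines, with 0.44 and 1.05. In all, 6 regions in EBF1-dTAG_C and 4 in EBF1-dTAG_N were nearest to one of the 8 genes but farther away than the limit.

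A list of 66 other genes of the pathway was read by role, with 60 holding a region in each table. In EBF1-dTAG_C 16 of the 60 (26.7%) had a falling region and 0 a rising one, against 16.5% and 1.01% of all genes with a region (edgeR calls of the authors' deposited table; 27 and 15 at an unadjusted p under 0.05). In EBF1-dTAG_N 28 of 60 (46.7%) had a falling region and 40 (66.7%) a rising one, against 34.4% and 41.4%. These 60 genes held 318 regions in EBF1-dTAG_C, whereas the median over all genes with a region was 2 each, so shares of genes are not matched for the number of regions. Counted by region, 22 of 318 (6.92%) fell in EBF1-dTAG_C, against 6.62% of all regions. In EBF1-dTAG_N 57 of 312 (18.3%) fell and 80 (25.6%) rose, against 18.5% and 18.8%. The share of falling regions of the whole list was therefore near the background in both lines.

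Among receptors, 6 of 11 genes with a region had a falling one in EBF1-dTAG_C, as did 9 of 10 in EBF1-dTAG_N, against 16.5% and 34.4% of all genes. By region, 12.5% of receptor regions fell in EBF1-dTAG_C, against 6.62% of all, and 34.4% fell in EBF1-dTAG_N, against 18.5% of all. Of the 21 falling receptor regions in EBF1-dTAG_N, 6 belonged to Tlr4 and 5 to Tnfrsf13b. A rising region was at 5 of 10 receptor genes in that line, against 41.4% of all genes. By region 13.1% of theirs rose, against 18.8% of all. The smallest adjusted p among the receptors was near Tnfrsf11a, which encodes RANK, 65.8 kb outside the gene. The authors' deposited tables gave it as 10.8-fold in EBF1-dTAG_C (adjusted p = 2.54e-04) and 19.7-fold in EBF1-dTAG_N (adjusted p = 1.34e-63). A region 26.8 kb from Tlr4, the receptor for bacterial lipopolysaccharide, fell 4.70-fold in EBF1-dTAG_C (adjusted p = 4.35e-04, authors' deposited table). The largest receptor fall in EBF1-dTAG_C, 22.7-fold, was at the only region of Tnfrsf1a, a receptor for TNF (adjusted p = 0.00840, authors' deposited table; 6.93-fold in EBF1-dTAG_N). Regions at Cd40, a costimulatory receptor of B cells, Tnfrsf1b, the other receptor for TNF, and Tnfrsf13b, which encodes TACI, also fell in EBF1-dTAG_C. Tlr7, an RNA sensor, held a region that rose 3.48-fold in EBF1-dTAG_N, and one inside Tnfrsf1b rose 2.25-fold (adjusted p = 5.82e-14 and 1.66e-08, authors' deposited table). Other regions of both genes fell in that line, 7.16-fold at Tlr7 and 3.56-fold at Tnfrsf1b (adjusted p = 1.07e-04 and 3.21e-07, edgeR, authors' deposited table).

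Of adaptors and kinases, 7 of 20 genes with a region had a falling one in EBF1-dTAG_C, as did 8 of 21 in EBF1-dTAG_N, where 13 had a rising one, against 16.5%, 34.4% and 41.4% of all genes. By region their falls were near the background, 8.06% against 6.62% in EBF1-dTAG_C and 15.5% against 18.5% in EBF1-dTAG_N. Traf1, an adaptor of TNF family receptors, had a fall of 4.70-fold near a gene end in EBF1-dTAG_C (adjusted p = 3.23e-04, authors' deposited table). The fall there in EBF1-dTAG_N was 4.64-fold (adjusted p = 1.60e-25, edgeR, authors' deposited table). Another region, 1.89 kb outside Traf1, rose 1.36-fold in EBF1-dTAG_N (adjusted p = 6.22e-07, authors' deposited table). Prkcb, the protein kinase C that links the B cell receptor to NF-kB, had a region that fell 2.44-fold in EBF1-dTAG_C (adjusted p = 3.69e-04) and 2.31-fold in EBF1-dTAG_N (adjusted p = 1.19e-34) in the authors' deposited tables. Another region inside Prkcb rose 4.49-fold in EBF1-dTAG_N (adjusted p = 0.00149, edgeR, authors' deposited table). A region inside Traf5 fell 7.94-fold in EBF1-dTAG_N (adjusted p = 4.04e-36, authors' deposited table). In EBF1-dTAG_C a region inside Traf5 fell 5.09-fold (adjusted p = 0.00855, edgeR, authors' deposited table).

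Other IkB proteins and negative regulators had a falling region at 2 of 12 genes in EBF1-dTAG_C, Nfkbid and N4bp1, against 16.5% of all genes. In EBF1-dTAG_N they had a falling one at 5 of 12 and a rising one at 9, against 34.4% and 41.4% of all genes. By region 3.12% of theirs fell in EBF1-dTAG_C, and 13.1% fell and 34.4% rose in EBF1-dTAG_N, against 6.62%, 18.5% and 18.8% of all regions. Bcl3, an atypical nuclear IkB protein, had the smallest adjusted p of the rises, 2.09-fold inside the gene in EBF1-dTAG_N (adjusted p = 2.11e-15, authors' deposited table). Known targets of NF-kB had a falling region at 1 of 17 genes in EBF1-dTAG_C, and at 6 of 17 in EBF1-dTAG_N, with a rising one at 13, beside 16.5%, 34.4% and 41.4% of all genes. By region 4.88% of theirs fell in EBF1-dTAG_C, and 13.8% fell and 33.8% rose in EBF1-dTAG_N. The one in EBF1-dTAG_C was Bcl2l1, which encodes the survival protein Bcl-xL, with 4 falling regions. Its leading region fell 2.27-fold in EBF1-dTAG_C (adjusted p = 1.72e-04) and 2.69-fold in EBF1-dTAG_N (adjusted p = 4.67e-131) in the authors' deposited tables. Another region inside Bcl2l1 rose 1.14-fold in EBF1-dTAG_N (adjusted p = 0.00596, edgeR, authors' deposited table). Irf4, a factor of later B cell stages, had an 8.92-fold fall in EBF1-dTAG_N (adjusted p = 1.67e-84), and a region 16.8 kb from Irf1, an interferon-response factor, rose 1.43-fold (adjusted p = 3.87e-11, authors' deposited table). Both genes also held regions that went the other way in that line. A region near an end of Irf4 rose 2.09-fold, and one 30.7 kb from Irf1 fell 7.08-fold (adjusted p = 2.32e-06 and 7.20e-04, edgeR, authors' deposited table).

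**Figure D5:**
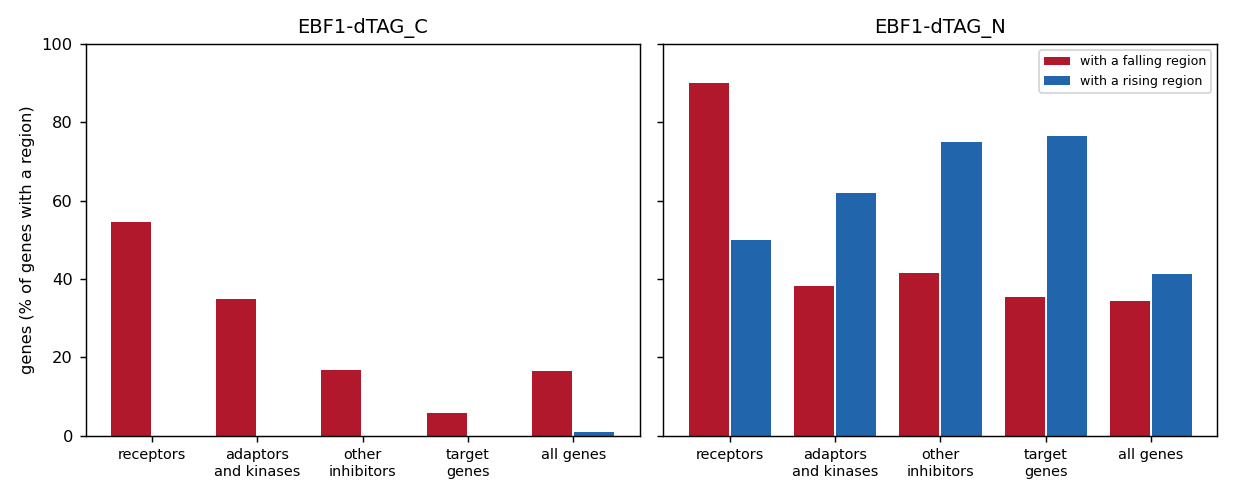
Share of genes with at least 1 falling (red) or rising (blue) region, as a percentage of the genes with a region, for 4 roles of other NF-kB pathway genes and for all genes, in EBF1-dTAG_C (left) and EBF1-dTAG_N (right). The label other inhibitors stands for other IkB proteins and negative regulators. Falling regions were at 6 of 11 receptor genes and 1 of 17 target genes in EBF1-dTAG_C, beside 16.5% of all genes; the shares are not matched for regions per gene.

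The 8 peak lists held 34202 to 39721 peaks in the dTAG-13 libraries, against 40166 to 42139 in the DMSO libraries. Depth in reads is unknown. The lowest background pileup, a relative measure of depth, was 0.229 and 0.258 in the EBF1-dTAG_C dTAG-13 libraries, against 0.344 and 0.331 with DMSO. In EBF1-dTAG_N it was 0.348 and 0.372 with dTAG-13, against 0.408 and 0.401 with DMSO. It was lower in every dTAG-13 library, and its part in the pileups and missing peaks given above was not tested. Of 12 B lineage marker genes, 10 to 12 had a peak within 1 kb of a gene end in every library, against 0 to 1 of 6 T cell, 0 to 3 of 6 myeloid and 0 to 1 of 4 erythroid markers. Some counts parted by treatment. B lineage markers with a peak numbered 10 and 11 in the EBF1-dTAG_N dTAG-13 libraries, against 12 and 12 with DMSO, myeloid ones 2 and 1, against 0 and 0, and erythroid ones 0 and 0, against 1 and 1. T cell markers with a peak numbered 1 and 1 in the EBF1-dTAG_C dTAG-13 libraries, against 0 and 0 with DMSO. Their part in the results was not tested.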

How the data were processed

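Peak lists and comparison tables of 8 ATAC-seq libraries were used as deposited. Per the submitters' processing notes, the build was GRCm38 (mm10) and the tools were edgeR 3.32.0, MACS2 2.2.7.1, Bowtie2 2.3.5.1, deepTools 3.3.2 and SAMtools 1.10; their settings, read filters and any shift for Tn5 cuts are not given in the sources used. The authors deposited, for each peak of each library, a score, a signal value that is the fold enrichment (a ratio), and −log10 p-values and q-values. For each line the authors deposited log2 fold changes, log2 CPM, an F score and p-values with Benjamini-Hochberg adjusted p-values, for dTAG-13 over DMSO. No test was refitted, since these tables give no library's own values.

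Repeats (8 and 12 entries) were counted once. The direction of the fold was checked against the peak lists: among regions whose peaks were lost from both dTAG-13 libraries, the fold was negative at 92.6% in EBF1-dTAG_C and 96.7% in EBF1-dTAG_N. F and p gave 11.2 denominator degrees of freedom in EBF1-dTAG_C and 110386 in EBF1-dTAG_N, where the spread was pooled over regions, so the p-values of the tables are not comparable. With 2 libraries a group they rest on the spread between these libraries, which are not stated to be separate cultures. In EBF1-dTAG_N that spread is the pooled one, not that of the region itself. The approximate SE is the absolute log2 fold change over the square root of F. The difference between lines was tested with it over all 42803 pairs (overlap of at least 1 bp), with Benjamini-Hochberg adjustment, and the test was tested on simulated data. Summit pileups were solved for 99.7% or more of the peaks of each list (relative tolerance 1e-04). In 2 libraries the replicate number inside the peak names differs from that in the title; the title was followed.

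Gene spans of 21900 protein-coding genes came from RefSeq (GRCm38.p6), which gives no strand, exons or UTRs here, so start and end of Nfkb1, Relb and Nfkbiz were not told apart. Regions were named by a rule: per gene and table the smallest adjusted p, the region over or nearest to the gene start, and those called in both lines; for other pathway genes, the 5 smallest adjusted p per direction. Further regions, such as the other called ones, were named after their values were seen. The 8 genes, the gene lists and the thresholds were chosen with earlier results of these data known. Alternatives were another distance (20 kb), thresholds, centring, degrees of freedom, peak cut-offs, overlap and leaving out each replicate. Python 3.11.15 with pandas 2.3.3 and scipy 1.17.1 was used.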

Additional observations from a re-analysis of the deposited data

How the results depend on the processing

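No paired analysis was possible because the comparison tables give no library's own values, and the peak lists give unscaled summit values only where a peak was called, which were described without a test. Both Relb regions stayed called as falls in both lines after centring and, in EBF1-dTAG_N, with the degrees of freedom of EBF1-dTAG_C, and the counts of falls in EBF1-dTAG_C kept to within 1.5 times. The rises in EBF1-dTAG_N did not. They numbered 14, against 8 at an adjusted p under 0.01, 5 with an absolute log2 fold of at least 1, 5 after centring and 9 with the degrees of freedom of EBF1-dTAG_C. By place, centring left 0, 4 and 1 rises near gene ends, inside genes and outside, in place of 3, 7 and 4. Factor rises, 10, came to 6, 4 and 4 under the first 3 of these. Inhibitor rises, 4, came to 2 at 0.01, 1 with the fold limit, 1 after centring, 2 with the other degrees of freedom and 1 within 20 kb, and inhibitor falls, 1, to 0 within 20 kb and 2 after centring. Other pathway genes with a rise in EBF1-dTAG_N numbered 18 with the fold limit and 24 after centring, in place of 40.

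Centring turned the median of the inhibitors to -0.0342 in EBF1-dTAG_C and -0.00775 in EBF1-dTAG_N. It also turned the Tnfaip3 regions at 19009307 and 19015181 in EBF1-dTAG_C to -0.0502 and -0.0192, and the one at 19015195 in EBF1-dTAG_N to -0.00434. It ended the calls at the starts of Nfkb2 (0.06), Rel (0.09) and Nfkbia (0.17) in EBF1-dTAG_N.

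Regions whose peak both DMSO libraries had and both dTAG-13 libraries lacked numbered 1 in EBF1-dTAG_C, the first Relb region, 0 when every list was trimmed to the same number of best peaks, and 2 to 4 without each library in turn. The opposite pattern numbered 0 there, 1 at a −log10 q of at least 10, 1 after that trimming, and 1 to 4 without each library. In EBF1-dTAG_N the patterns numbered 3 and 3, and 3 to 8 and 4 to 8 without each library. Leaving out a library makes a pattern easier to meet, by its construction. Relative depth was lower in every dTAG-13 library, which limits what the absence of a peak there can show.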
